A study of Homo sapiens with 52 samples.

Results

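The annexins and ferlins of membrane repair were followed as 10 genes chosen by symbol: the annexins ANXA1, ANXA2, ANXA4, ANXA5, ANXA6, ANXA7 and ANXA11, the annexin partner S100A10, and the ferlins DYSF (dysferlin) and MYOF (myoferlin). All 10 were found among the 59408 genes of the deposited tables, and all 10 were among the 14883 that were tested (mean normalised count of at least 10). The cells were WI-38, an established line of normal human lung fibroblasts. For 24 h they received SDS at 0.009%, a detergent that makes holes in the cell membrane, 75 mM KCl, used by the study to let calcium in, or 250 nM doxorubicin (DXR), which damages DNA, and mRNA was sequenced from cells collected daily from day 0 to day 4 and then on day 6, day 8 and day 16. The resulting senescent cells are called PMD-Sen after SDS, Ca2+-Sen after KCl and DDR-Sen after DXR. Treated and untreated cultures lay between population doubling levels (PDL) 32 and 46, and a further group, RS, was passaged to replicative senescence at PDL 52. Every group was of 1 cell line with no genetic change stated, and there were 2 libraries in each of 26 groups. The untreated group has no day of its own, so day 16 and RS were set against the same untreated cells as day 0.

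Annexins are soluble proteins that bind negatively charged lipid of membranes when calcium rises, and they gather at the rim of a plasma membrane wound, where they hold, bend and fuse membrane. ANXA2 works as a complex with S100A10, a small protein of the S100 family that does not itself need calcium. Ferlins are large proteins of membranes with several calcium-binding C2 domains. Dysferlin is best known from skeletal muscle, where its loss causes a muscular dystrophy, and myoferlin is the ferlin of many dividing and connective tissue cells.

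The 250 bases before the transcription start, from the RefSeq promoter table (GRCh38.p14), are shown for DYSF, the gene with the widest range here, for ANXA2 and S100A10, whose products form a complex, and for ANXA1, which moved in opposite directions after SDS and KCl. Capitals mark the TATA box motif TATAAA, the CCAAT box motif CCAAT, the GC box motif GGGCGG and the AP-1 motif TGANTCA on either strand, and overlapping copies run together. The DYSF stretch is at chr2:71453311-71453560 on the plus strand, ANXA2 at chr15:60397987-60398236 on the minus strand, S100A10 at chr1:151993860-151994109 on the minus strand, and ANXA1 at chr9:73151615-73151864 on the plus strand.
DYSF: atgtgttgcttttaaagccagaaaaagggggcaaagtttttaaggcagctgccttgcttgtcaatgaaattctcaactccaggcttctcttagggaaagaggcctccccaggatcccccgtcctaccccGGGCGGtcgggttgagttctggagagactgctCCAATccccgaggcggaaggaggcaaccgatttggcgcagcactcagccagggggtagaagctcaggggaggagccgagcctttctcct
ANXA2: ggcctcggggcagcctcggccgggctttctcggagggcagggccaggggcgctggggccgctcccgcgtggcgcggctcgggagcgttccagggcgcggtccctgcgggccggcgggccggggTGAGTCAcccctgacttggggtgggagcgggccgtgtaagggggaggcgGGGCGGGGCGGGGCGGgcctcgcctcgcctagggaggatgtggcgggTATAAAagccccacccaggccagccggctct
S100A10: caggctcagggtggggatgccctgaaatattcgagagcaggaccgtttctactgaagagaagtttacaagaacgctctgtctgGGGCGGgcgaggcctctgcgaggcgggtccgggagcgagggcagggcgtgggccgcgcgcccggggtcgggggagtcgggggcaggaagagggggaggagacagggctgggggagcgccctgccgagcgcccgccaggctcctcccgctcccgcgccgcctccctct
ANXA1: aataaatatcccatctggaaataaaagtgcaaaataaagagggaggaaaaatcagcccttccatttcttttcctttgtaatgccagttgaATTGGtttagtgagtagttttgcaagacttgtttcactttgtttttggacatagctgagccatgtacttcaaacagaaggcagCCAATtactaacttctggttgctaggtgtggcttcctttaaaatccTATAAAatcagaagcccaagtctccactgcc
The DYSF stretch held 1 CCAAT and 1 GGGCGG and no TATAAA, whereas the ANXA2 stretch held 1 TATAAA, 3 GGGCGG and 1 TGANTCA. In S100A10 only 1 GGGCGG was found among the 4 motifs, and ANXA1 held 1 TATAAA and 2 CCAAT. Over 35116 promoters of the same length, TATAAA was present in 10.7%, CCAAT in 32%, GGGCGG in 42.6% and TGANTCA in 6.57%. These matches describe the letters only.

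The files give, for each gene, the mean normalised count over the 4 libraries of a comparison, and whole reads of each library were recovered from those means (99.4% of the gene and table pairs above 0). Values of single libraries below are these recovered reads divided by a size factor, and are called normalised counts. Within a group the libraries are named by depth, smaller first. The untreated libraries held 15.19 M and 18.85 M reads, fewer than any of the others (19.27 M to 55.13 M, median 29.23 M), and both enter every comparison with untreated cells. For some highly expressed genes more than 1 pair of whole reads fitted. If exactly 1 of them had its 2 values within 2-fold, it was taken, and otherwise only the group mean is given. Up to 780 genes of a comparison (day 1 after DXR) had a pair taken this way. Such pairs were chosen for likeness, so their spread may be understated, and they are not marked below. Only the mean was known for ANXA5 in 15 of 26 groups, ANXA2 in 14, MYOF in 7 and ANXA6 in 6. It was so for ANXA1 in 5 and for ANXA7 and ANXA11 in 1 each, and in no group for ANXA4, DYSF and S100A10. The 6 fibroblast markers were high in every group, the lowest value of any being 3498 for COL3A1, whereas MYOD1, KRT5 and CDH5 did not exceed 1.70 in any group mean and CD3E did not exceed 2.90. Markers of other cells that did move were the myeloid gene CD14 (12.2 to 203 in the group means) and the leukocyte gene PTPRC (0 to 19.9, the highest on day 2 after DXR). So did the endothelial genes PECAM1 (2.003 to 107.5, the highest on day 0 after KCl) and VWF (22.5 to 72.0, the highest in RS). The muscle genes were DES (2.40 to 57.0), TRIM72 (0 to 10.5, the highest on day 0 after KCl) and MYH2 (0 to 3.18, the highest on day 16 after DXR). Of the epithelial genes, EPCAM was at 12.9 in untreated cells (0.725 to 17.2) and CDH1 ran from 0 to 10.0, the highest on day 0 after KCl. The part of these markers in the results was not tested. Fewer cells of a type and less RNA per cell cannot be told apart in such bulk samples.

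Untreated WI-38 cells expressed 9 of the 10 genes at high levels. On the scale of normalised counts per kilobase of exon, the order was ANXA5 (10806), ANXA2 (5833), ANXA6 (3351), S100A10 (2808), ANXA1 (2762), MYOF (2285), ANXA11 (847.5), ANXA7 (812.9), ANXA4 (127.9) and DYSF (1.73). With exons of all annotated transcripts, as here, the untreated libraries of S100A10 and ANXA1 overlapped on this scale, and those of the other neighbours in the order did not. With exons of the basic transcript set alone, ANXA2 came first (27291, against 18607 for ANXA5), ANXA1 (5299) passed S100A10 (3445), and the other places were as before. DYSF was at the other end, with 12 and 9 reads in the untreated libraries, so its values carry the largest counting error of the 10. ANXA2 (chromosome 15, 60347134 to 60402883, minus strand, GRCh38) has a processed copy, ANXA2P2, with 3075 normalised counts in untreated cells, and in all 26 groups the copy stood at 5.86% to 6.27% of ANXA2, so reads may be shared between them, which leaves the level of ANXA2 uncertain by about that share and the level of ANXA2P2 uncertain as a whole. Exons of ANXA7 (chromosome 10, 73375101 to 73414076, minus strand) overlap those of AL512656.1 on the opposite strand, and the sources used here do not state that counting used strand.

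DYSF (chromosome 2, 71453722 to 71686768, plus strand) had the widest range of the 10 genes, from 12.8 on day 8 after KCl to 355 in RS, a 27.8-fold span of the group means. The untreated libraries were at 17.99 and 11.08 normalised counts, and those of SDS day 0 were at 125 and 116. Both SDS libraries lay above both untreated ones, and the difference on the log2(normalised count + 1) scale was 3.00 (SE 0.39, n = 2 per group, limma adjusted p = 1.8e-07). This is the scale of every log2 difference from untreated cells below, and each such p comes from the limma fit over all 26 groups with Benjamini-Hochberg adjustment over 14883 genes. With 2 libraries per group, each p-value sets a difference against the spread between libraries of a group, and this spread is pooled over groups. The SE of a gene is therefore the same where its 2 libraries lie close and where they lie far apart. A group known only by its mean adds nothing to that spread.

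After SDS the DYSF level came down from day to day at first. The libraries stood at 52.5 and 41.5 on day 1 and at 33.7 and 29.3 on day 2, still above both untreated libraries (1.65, SE 0.39, adjusted p = 0.0018 and 1.098, SE 0.39, adjusted p = 0.046). From day 3 on no difference after SDS passed the test, and by day 16 the libraries were at 16.2 and 35.9, which overlapped the untreated ones. The fall from day 0 to day 1 was itself past the threshold (SDS day 0 above day 1 by 1.35, SE 0.39, adjusted p = 0.0041).

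KCl gave a smaller and later high point of DYSF. On day 0 the libraries were at 24.9 and 37.4 (1.06, SE 0.39, adjusted p = 0.021), on day 1 at 44.1 and 50.6 (1.67, SE 0.39, adjusted p = 0.0038). The day 0 call rested on single libraries, since the difference was 0.78 (adjusted p = 0.18) without the larger KCl library and 0.73 (adjusted p = 0.20) without the larger untreated library, and with no filter on low genes the adjusted p was 0.052. Day 1 did not differ from day 0 by the test (adjusted p = 0.18), and on days 2 to 16 no difference from untreated cells passed it, with 10.2 and 15.3 on day 8 and 20.98 and 13.04 on day 16.

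After DXR the high levels of DYSF came late. Day 0 was at 15.04 and 23.76 and overlapped the untreated libraries (0.40, SE 0.39, adjusted p = 0.45). DYSF was then at 46.3 and 41.6 on day 6 (1.57, adjusted p = 0.0021), at 40.9 and 27.6 on day 8 (1.19, adjusted p = 0.017) and at 66.4 and 63.3 on day 16 (2.12, SE 0.39, adjusted p = 5.6e-05). All 6 of these libraries were above both untreated ones.

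RS held the highest DYSF level, with 488 and 222 normalised counts in its libraries, both above every library of the treated groups. The difference from untreated cells was 4.45 (SE 0.39, adjusted p = 2.7e-10). The RS libraries lay far from each other, and the difference was 3.88 without the higher and 5.01 without the lower library, past the threshold both ways. In all, DYSF was called higher in 9 of the 25 comparisons with untreated cells and lower in none. These comparisons share the untreated libraries, so this count and those of other genes below are not of independent results.

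**Figure D1:**
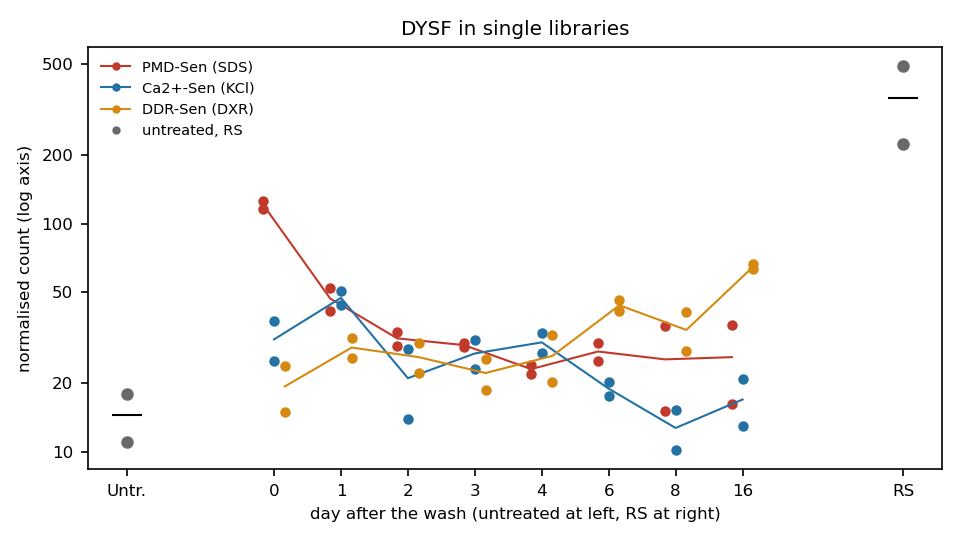
Normalised counts of DYSF on a log axis (vertical) by day after the wash (horizontal, evenly spaced, with untreated cells at the left and RS at the right). Each dot is 1 library, black bars mark the means of untreated cells and RS, and coloured lines join the group means of each inducer. The SDS course starts at 121 on day 0 and comes down, the DXR course ends at 64.9 on day 16, and RS lies above both with a mean of 355.

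MYOF, the other ferlin of the 10, did not rise in any of the 25 comparisons and fell in 6. Untreated libraries were at 19035 and 19682 normalised counts and SDS day 0 libraries at 9328 and 10577, with no overlap (-0.96, SE 0.09, adjusted p = 6.6e-09). On day 1 after SDS the group mean was 14594 (-0.41, adjusted p = 0.0014), and on days 2 to 8 no difference passed the test. KCl day 0 libraries were at 18539 and 18567, a difference of -0.06 (SE 0.09, adjusted p = 0.58). The DXR mean on day 0 was 15047 (-0.36, SE 0.09, adjusted p = 0.0024), and MYOF was lower again on day 16 after DXR, with a mean of 13912 (-0.48, adjusted p = 0.00015). RS libraries were at 16209 and 19045, the larger of them within the untreated pair (adjusted p = 0.21). DYSF and MYOF thus moved in opposite directions on day 0 after SDS and on day 16 after DXR.

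ANXA2, which gathers and links membranes at wounds, and its partner S100A10 both fell on day 0 after SDS. The ANXA2 libraries went from 52244 and 50699 in untreated cells to 33379 and 29462 (-0.71, SE 0.07, adjusted p = 7.5e-07). S100A10 (chromosome 1, 151982915 to 151994390, minus strand) went from 4309 and 4358 to 2151 and 1869 (-1.11, SE 0.17, adjusted p = 1.8e-06). After KCl the partners parted. ANXA2 was at 43372 and 42526 (-0.26, SE 0.07, adjusted p = 0.0059), below both untreated libraries, whereas S100A10 was at 6629 and 6773 (0.63, SE 0.17, adjusted p = 0.0018), above both and the highest level of the gene in any group.

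ANXA2 then exceeded the untreated level in the days after SDS and KCl. It was higher on days 2, 3 and 4 after SDS, with its highest mean of 74389 on day 3 (0.53, adjusted p = 0.00021), and on days 3 and 4 after KCl, where the day 3 libraries were at 66869 and 63165 (0.34, adjusted p = 0.0067). On day 8 after KCl it was lower, at 33522 and 34780 (-0.59, adjusted p = 1.3e-05). In RS it was at 43033 and 39298 (-0.32, SE 0.07, adjusted p = 0.0018), and on day 16 it was lower after DXR, with a mean of 40246 (-0.35, adjusted p = 0.00092), and after SDS, with a mean of 43282 (-0.25, adjusted p = 0.011). The last of these missed the threshold without the smaller untreated library (-0.23, adjusted p = 0.068) and with no filter (adjusted p = 0.076).

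S100A10 was lower than in untreated cells in 9 of the 25 comparisons, 5 of them after DXR. Days 1, 2, 6, 8 and 16 after DXR were called, with differences from -0.69 on day 6 (2828 and 2542 normalised counts, adjusted p = 0.0015) to -0.47 on day 16 (3577 and 2729, adjusted p = 0.020). DXR day 0 was different, at 5118 and 4547 (0.15, SE 0.17, adjusted p = 0.49), and day 0 exceeded day 1 by 0.78 (SE 0.17, adjusted p = 0.0011). The day 16 call was lost without the larger DXR library (-0.28, adjusted p = 0.28), the smaller untreated library (-0.48, adjusted p = 0.067) or the larger untreated library (-0.46, adjusted p = 0.075), and with no filter (adjusted p = 0.052). In RS the libraries were at 4309 and 2415 (-0.43, SE 0.17, adjusted p = 0.035). One of these equalled an untreated library to the nearest whole value, and without the larger RS library the difference was -0.01 (adjusted p = 0.97), so this call rested on 1 library. It also missed the threshold without the smaller untreated library (-0.43, adjusted p = 0.095), without the larger one (-0.42, adjusted p = 0.11) and with no filter (adjusted p = 0.095).

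ANXA1, a mediator that also limits inflammation, moved in opposite directions after SDS and KCl. Untreated libraries were at 13117 and 12075 normalised counts, SDS day 0 libraries at 17952 and 18136 (0.52, SE 0.14, adjusted p = 0.0037) and KCl day 0 libraries at 9435 and 9121 (-0.44, SE 0.14, adjusted p = 0.011). None of the 3 pairs overlapped. The KCl call missed the threshold without the smaller untreated library (-0.38, adjusted p = 0.08) and without the larger KCl library (-0.42, adjusted p = 0.059). ANXA1 stayed higher on days 1 and 2 after SDS, with its highest mean of 19570 on day 1 (0.64, adjusted p = 0.0017), and after KCl it was higher on day 3 (18939 and 17005, 0.51, adjusted p = 0.018) and lower on day 8 (7888 and 8206, -0.65, adjusted p = 0.0009). On day 16 after SDS the libraries were at 7005 and 12013 (-0.46, SE 0.14, adjusted p = 0.013), but without the smaller of them the difference was -0.07 (adjusted p = 0.68), and without the smaller untreated library it was -0.40 (adjusted p = 0.092). After DXR no day passed the test.

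ANXA6 and ANXA11 both fell by more than a log2 unit on day 0 after SDS. ANXA6, the largest annexin with a doubled core, went from 19410 and 16961 to 8423 and 7365 (-1.204, SE 0.09, adjusted p = 1.7e-10), and ANXA11, an annexin with a long disordered N-terminus, from 7262 and 7168 to 3074 and 2844 (-1.29, SE 0.07, adjusted p = 3.2e-14). Neither pair overlapped the untreated one. On day 1 ANXA11 was at 6682 and 6592 (adjusted p = 0.22) and the ANXA6 mean was 14959 (-0.28, adjusted p = 0.024). ANXA6 then was above the untreated level on days 2 and 3, with 24276 and 22344 on day 3 (0.36, adjusted p = 0.0075).

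KCl separated this pair of genes on day 0. ANXA6 fell to 11643 and 11235 (-0.67, SE 0.09, adjusted p = 1.6e-06), whereas ANXA11 was at 7799 and 7713 (0.10, SE 0.07, adjusted p = 0.22). ANXA6 was also lower on day 0 after DXR (mean 14369, -0.34, SE 0.09, adjusted p = 0.0051), a call that was lost without the smaller untreated library (-0.24, adjusted p = 0.097), and on day 1 (adjusted p = 0.032). ANXA11 was lower on day 16 after DXR, at 5535 and 5979 (-0.33, SE 0.07, adjusted p = 0.00051), and in RS, at 5175 and 6064 (-0.36, SE 0.07, adjusted p = 0.00015), and in both groups all libraries were below the untreated ones.

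ANXA7, an annexin with a long N-terminal tail linked to vesicle fusion, had its one large change on day 0 after KCl. Its libraries went from 2335 and 2318 in untreated cells to 1149 and 1119 (-1.04, SE 0.08, adjusted p = 8.9e-12) and stood at 2918 and 2705 on day 1 (0.27, adjusted p = 0.016), so day 0 was below day 1 by 1.31 on the log2 scale (-1.31, SE 0.08, adjusted p = 7.2e-14). SDS day 0 libraries, at 2370 and 2272, lay on both sides of the untreated pair (adjusted p = 0.97). After DXR the day 0 libraries were at 2026 and 1999 (-0.21, SE 0.08, adjusted p = 0.033), and this call was lost when any 1 of the 4 libraries was left out (adjusted p from 0.093 to 0.11, with differences from -0.22 to -0.20) and with no filter (adjusted p = 0.11).

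ANXA4, an annexin abundant in epithelia, was the gene called most often, higher than in untreated cells in 22 of the 25 comparisons. The exceptions were SDS day 0, KCl day 0 and KCl day 16. Untreated libraries were at 1534 and 1292, and DXR day 0 libraries at 4544 and 3803 (1.56, SE 0.09, adjusted p = 8.7e-14), the highest level in any group. On day 1 after DXR they were at 2448 and 2429 (0.79, adjusted p = 4.0e-08), and from day 2 to day 16 all group means lay between 1983 and 2214. SDS day 0 libraries (1218 and 1304) and KCl day 0 libraries (1216 and 1298) each held 1 value above the lower untreated library. One day later both were called higher, at 1788 and 1854 after SDS (0.37, adjusted p = 0.0016) and at 1795 and 1721 after KCl (0.32, adjusted p = 0.011). In RS the libraries were at 1522 and 2041 (0.32, SE 0.09, adjusted p = 0.0028), the smaller of them within the untreated pair, and the difference was 0.11 (adjusted p = 0.27) without the larger RS library and 0.20 (adjusted p = 0.11) without the larger untreated library.

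ANXA5, the annexin used as a probe for exposed phosphatidylserine, varied least. Its group means ran from 25533 on day 1 after SDS to 35227 on day 16 after SDS, a 1.38-fold span, against 32795 and 32777 in the untreated libraries. It was called in 3 comparisons, all lower, namely SDS day 1 (-0.36, adjusted p = 0.00062), DXR day 0 (mean 27282, -0.27, SE 0.06, adjusted p = 0.0035) and DXR day 4 (mean 28782, -0.19, adjusted p = 0.039). In these 3 treated groups only the group mean was known. The spread in the tests came from the 11 groups whose ANXA5 libraries were known, so the spread within the called groups was not measured. In RS the libraries were at 32999 and 32899.

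**Figure D2:**
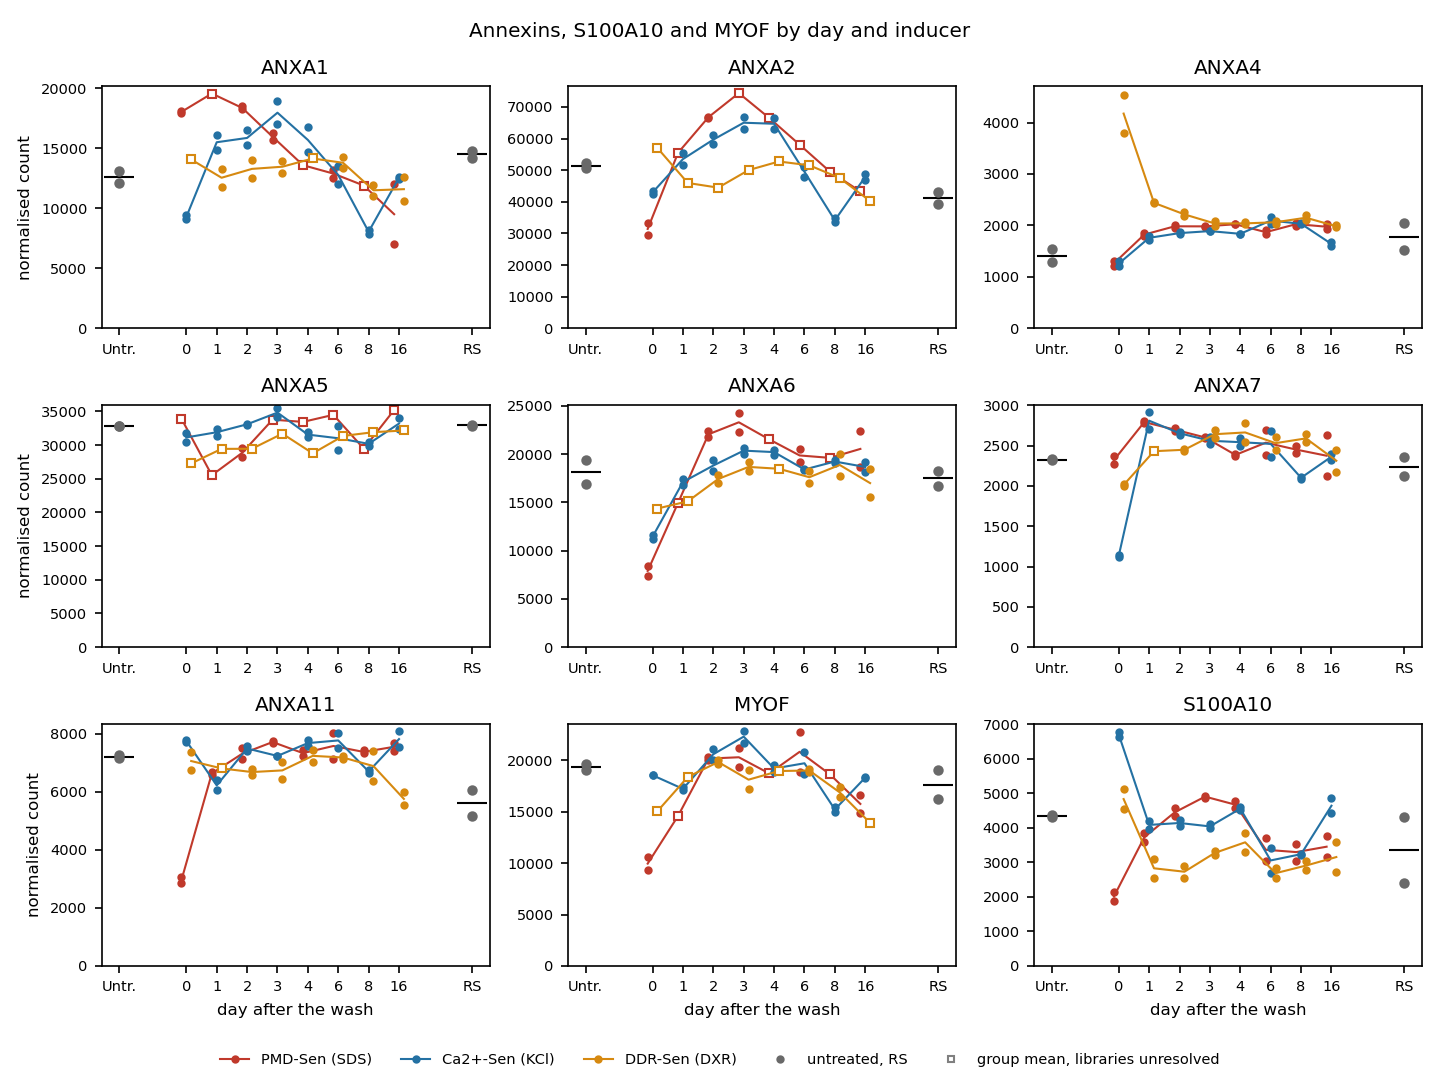
Normalised counts (vertical, from 0) of the 7 annexins, MYOF and S100A10 by day after the wash (horizontal, evenly spaced, with untreated cells at the left and RS at the right). Dots are single libraries, open squares are group means where the libraries could not be told apart, and lines join the group means. ANXA4 stands out on day 0 after DXR with a mean of 4174, and ANXA11 on day 0 after SDS with a mean of 2959.

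Counted over the 10 genes, day 0 after SDS had 2 higher (ANXA1, DYSF) and 5 lower (ANXA2, ANXA6, ANXA11, MYOF, S100A10), where 57.6% of all tested genes were called. After KCl 2 were higher (DYSF, S100A10) and 4 lower (ANXA1, ANXA2, ANXA6, ANXA7) beside 60.8% of all genes, and after DXR 1 was higher (ANXA4) and 4 lower (ANXA5, ANXA6, ANXA7, MYOF) beside 41.5%. The counts of called genes were therefore near the background, and nothing particular to the group is read from them. The median difference of the 10 genes was -0.44 after SDS, -0.12 after KCl and 0.06 after DXR, against -0.00, -0.03 and -0.01 over all tested genes.

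Fibroblast markers moved on the same day. Of 6, 1 was higher and 4 lower after SDS. In the group means COL3A1 fell from 27305 to 3498 and THY1 from 14830 to 5344, whereas COL1A2 rose from 171634 to 256706. After KCl 1 was higher and 4 lower, and none was called after DXR. The shares of all tested genes called were 57.6%, 60.8% and 41.5% in the same order. Among markers of other cells, the 3 epithelial ones were not tested. Nor were 1 of 3 endothelial, 2 of 3 white blood cell and 3 of 4 skeletal muscle markers. Those tested were PECAM1, VWF, CD14 and DES. Of these, none was called after SDS, PECAM1, VWF and DES were called higher after KCl, and PECAM1, VWF and CD14 after DXR. Their part in the differences of the 10 genes was not tested.

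**Figure D3:**
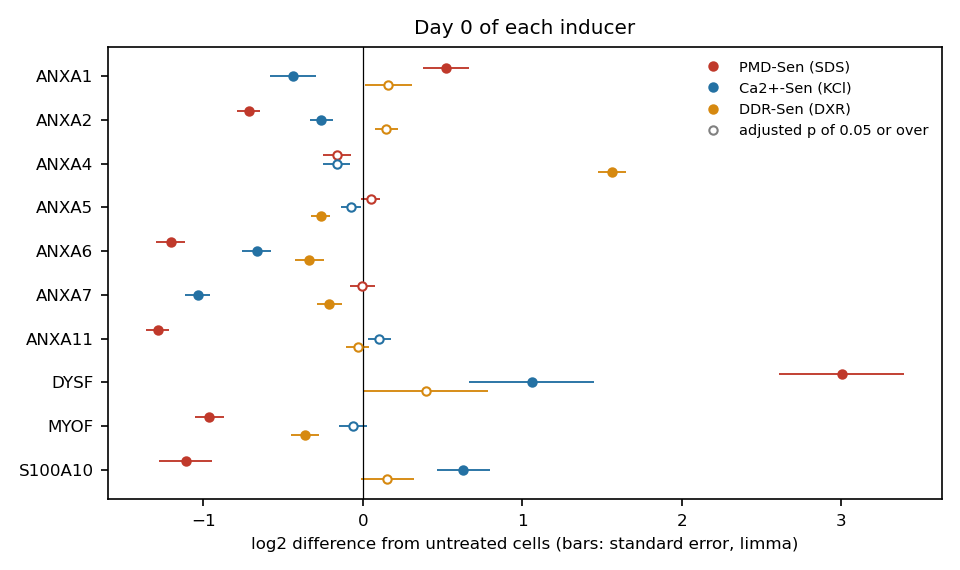
Differences from untreated cells (horizontal, log2 scale, bars show the standard error of the limma fit) for the 10 genes (vertical) on day 0 of each inducer. Filled dots have an adjusted p under 0.05. DYSF is at 3.00 after SDS, ANXA4 at 1.56 after DXR, ANXA7 at -1.04 after KCl and ANXA11 at -1.29 after SDS.

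The number of called genes then varied with the inducer and the day. From day 1 to day 4 and on days 6 and 8 after SDS it was 7, 5, 3, 2, 1 and 1 of the 10, where 31.9%, 20.7%, 22.2%, 25.4%, 32.4% and 27.6% of all genes were called. After KCl it was 4, 1, 3, 2, 2 and 5 on those days, beside 17.1%, 5.62%, 16.0%, 21.0%, 28.1% and 44.6%, and after DXR 3, 2, 1, 2, 3 and 3, beside 31.2%, 20.5%, 22.3%, 26.1%, 38.0% and 38.4%. ANXA4 was among the called genes on each of these 18 days and was the only one on days 6 and 8 after SDS, day 2 after KCl and day 3 after DXR.

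**Figure D4:**
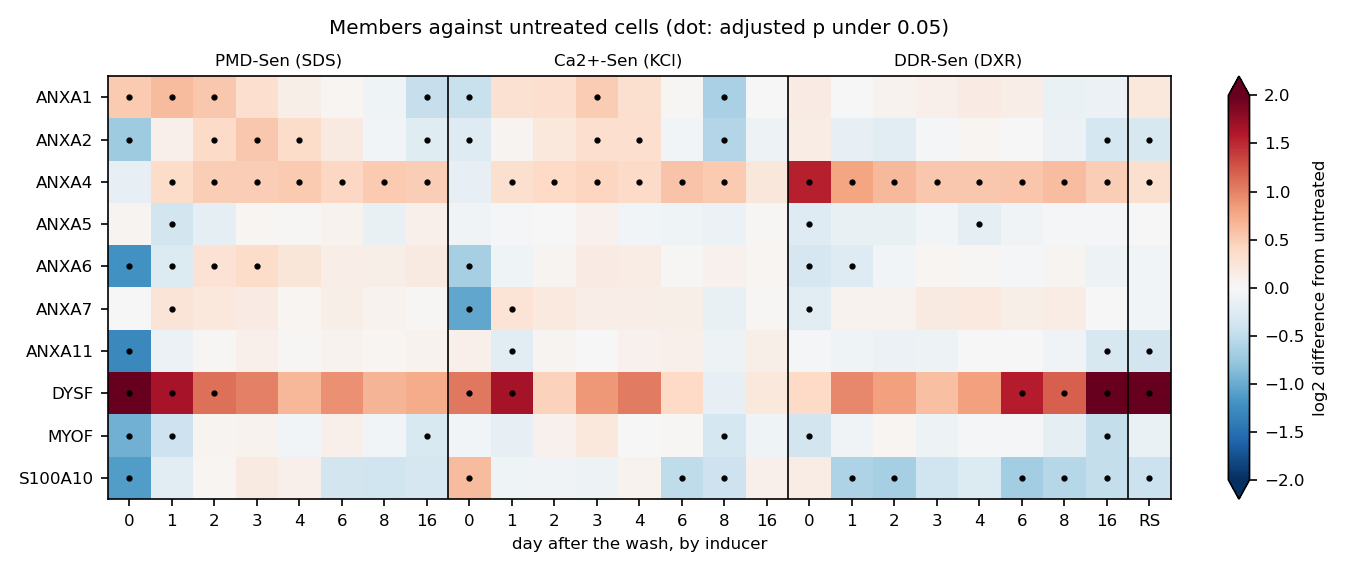
Difference from untreated cells (colour, log2 scale, red higher and blue lower, with colours ending at 2 in either direction) for the 10 genes (rows) by inducer and day, with RS at the right. A dot marks an adjusted p under 0.05. The row of ANXA4 carries 22 dots, that of DYSF 9 and that of ANXA5 3.

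The step from day 0 to day 1 was tested directly. It was past the threshold for 9 of the 10 genes after SDS (58.6% of all genes), the exception being ANXA1 (-0.12, SE 0.14, adjusted p = 0.51). Of the 9, DYSF and ANXA5 were higher on day 0 and the other 7 lower, and ANXA11 had the largest difference among these (-1.17, SE 0.07, adjusted p = 1.7e-13). After KCl 7 genes passed (61.5%), with ANXA11 (0.32) and S100A10 (0.71, SE 0.17, adjusted p = 0.0005) higher on day 0 and ANXA1, ANXA2, ANXA4, ANXA6 and ANXA7 lower. After DXR 5 passed (21.8%), with ANXA2 (0.31), ANXA4 (0.77, SE 0.09, adjusted p = 4.0e-07) and S100A10 higher on day 0 and ANXA7 (-0.27) and MYOF (-0.29) lower.

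On day 16 the number of called genes varied with the inducer, as did the share of all genes. A gene called after 1 inducer only need not differ between inducers, and the direct comparisons are given further below. After SDS 4 of the 10 genes were called (45.6% of all genes), ANXA4 higher (2018 and 1929, 0.49, SE 0.09, adjusted p = 4.5e-05) and ANXA1, ANXA2 and MYOF lower. MYOF was at 14914 and 16607 (-0.30, SE 0.09, adjusted p = 0.0093), and this call was lost without the smaller SDS library (-0.22, adjusted p = 0.12) or the larger untreated library (-0.27, adjusted p = 0.058). After KCl limma called 0 of the 10 (17.0% of all genes), and 1, ANXA4, had an unadjusted p under 0.05 (0.22, SE 0.09, adjusted p = 0.082). After DXR 6 were called (48.5% of all genes), DYSF and ANXA4 higher (ANXA4 at 2000 and 1967, 0.49, adjusted p = 3.0e-05) and ANXA2, ANXA11, MYOF and S100A10 lower.

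RS had 5 called genes (48.9% of all genes), DYSF and ANXA4 higher and ANXA2, ANXA11 and S100A10 lower. Without the larger RS library the difference was 0.11 for ANXA4 and -0.01 for S100A10. S100A10 on day 16 after DXR was at -0.28 without the larger DXR library. Side by side with day 16 after DXR, which was set against the same untreated libraries, the differences in RS and after DXR were 4.45 and 2.12 for DYSF, 0.32 and 0.49 for ANXA4, -0.32 and -0.35 for ANXA2, -0.36 and -0.33 for ANXA11, and -0.43 and -0.47 for S100A10. For the other 5 genes they were -0.14 and -0.48 for MYOF, 0.20 and -0.12 for ANXA1, 0.01 and -0.03 for ANXA5, -0.05 and -0.10 for ANXA6, and -0.06 and -0.01 for ANXA7, and of these values only that of MYOF after DXR passed the test. CD14 was at 200 in RS, 192 on day 16 after SDS and 182 on day 16 after DXR, against 21.7 in untreated cells and 52.9 on day 16 after KCl, and its part in these differences was not tested. VWF was higher in RS (72.0 against 34.6 in untreated cells, adjusted p = 0.020), and PECAM1 was higher on day 16 after DXR (14.6 against 2.25, adjusted p = 0.0027). Of the 6 fibroblast markers, THY1 and PDGFRB were higher in RS and on day 16 after SDS and DXR, VIM was lower in RS, COL1A1 and VIM were lower on day 16 after DXR, and none was called on day 16 after KCl. The part of these markers in the differences of the 10 genes was not tested either.

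**Figure D5:**
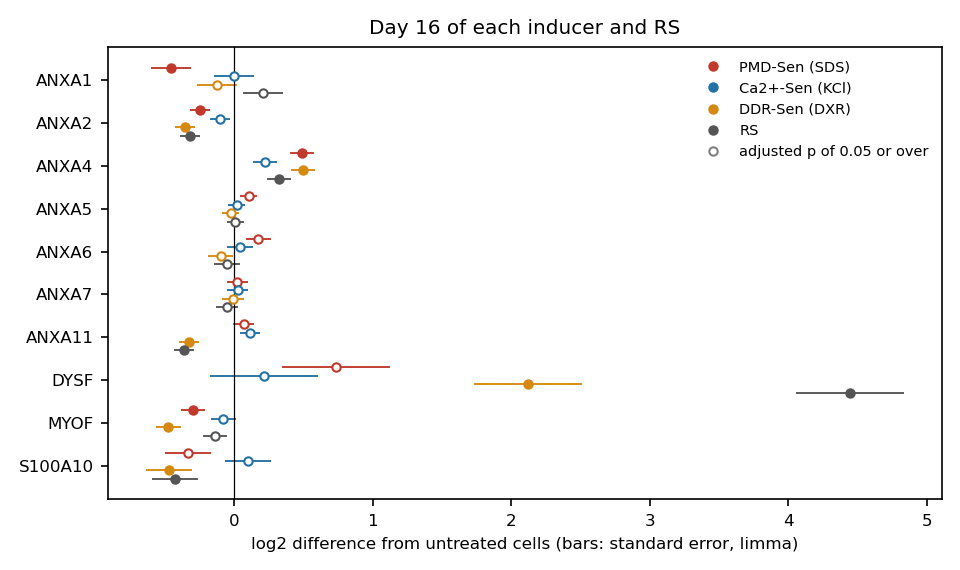
Differences from untreated cells (horizontal, log2 scale, bars show the standard error of the limma fit) for the 10 genes (vertical) on day 16 of each inducer and in RS. Filled dots have an adjusted p under 0.05. DYSF lies at 4.45 in RS and 2.12 after DXR, the KCl dots are all open, and the other 9 genes differ by less than 0.5 in either direction.

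The inducers were compared with each other at matched days, 3 pairs on day 0 and 3 on day 16, with no untreated library in the difference. Between SDS and KCl on day 0, 8 of the 10 genes differed (65.7% of all genes). S100A10 was lower after SDS (-1.74, SE 0.17, adjusted p = 3.3e-10), as was ANXA11 (-1.39, SE 0.07, adjusted p = 2.3e-15), whereas DYSF (1.94, SE 0.39, adjusted p = 8.0e-05), ANXA7 (1.03, SE 0.08, adjusted p = 4.3e-12) and ANXA1 (0.96, SE 0.14, adjusted p = 3.3e-06) were higher after SDS. ANXA4 (0.00, SE 0.09) and ANXA5 (0.12, SE 0.06, adjusted p = 0.094) did not pass.

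SDS and DXR differed on day 0 in all 10 genes (58.8% of all genes). ANXA4 was lower after SDS (-1.72, SE 0.09, adjusted p = 1.0e-15) and DYSF higher (2.61, SE 0.39, adjusted p = 1.7e-06), and the smallest of the 10 differences was that of ANXA7 (0.21, SE 0.08, adjusted p = 0.026). KCl and DXR differed in 8 (63.0%), with ANXA4 lower after KCl (-1.73, SE 0.09, adjusted p = 1.2e-15), and ANXA11 and DYSF did not pass (0.14, SE 0.07, adjusted p = 0.10 and 0.66, SE 0.39, adjusted p = 0.14).

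By day 16 fewer of the 10 genes differed between SDS and the other inducers. SDS against KCl gave 2 (24.4% of all genes), ANXA1 (-0.45, SE 0.14, adjusted p = 0.025) and ANXA4 (0.27, SE 0.09, adjusted p = 0.024). SDS against DXR also gave 2 (4.73%), ANXA11 (0.39, SE 0.07, adjusted p = 0.0038) and DYSF (-1.39, SE 0.39, adjusted p = 0.039). KCl against DXR gave 6 (29.0%), of which DYSF and ANXA4 were lower after KCl (DYSF -1.91, SE 0.39, adjusted p = 0.00051) and ANXA2, ANXA11, MYOF and S100A10 higher.

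The authors' pooled means, which mix a group with the untreated libraries and so show a smaller difference than the groups themselves, were also compared directly, with no test and the limit that one mean was at least 25% higher than the other. From day 0 to day 16 they passed this limit for 5 of the 10 genes after SDS (39.3% of 14740 genes), 2 after KCl (37.1%) and 2 after DXR (22.3%). DYSF was at 67.6 and 20.3 in the pooled means of SDS days 0 and 16, and at 17.0 and 39.7 in those of DXR. From day 0 to day 1 the counts were 5 (35.4%), 4 (38.7%) and 3 (12.1%) in the same order of inducers. Between inducers on day 0 they were 6 for SDS against KCl (43.5%), 5 for SDS against DXR (34.9%) and 3 for KCl against DXR (39.8%).

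On day 16 only DYSF passed the limit in each of the 3 pairs of inducers, which was 1 of the 10 genes beside 12.4%, 6.52% and 15.1% of all genes for SDS against KCl, SDS against DXR and KCl against DXR. The same gene was the 1 of 10 past the limit between RS and day 16 of SDS (12.0%), KCl (16.4%) and DXR (8.03%). Its pooled mean was 185 in RS, against 20.3, 15.8 and 39.7. For SDS against KCl on day 16 the DYSF libraries overlapped (16.2 and 35.9 against 20.98 and 13.04). The limma test did not call DYSF in that pair.

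The genes most like each of the 10 in their pooled means were sought among 10547 other genes with a mean of at least 100, by Pearson's r of log2 values over the 25 tables, which all contain the untreated libraries. ANXA2 was most like its copy ANXA2P2 (r = 0.997) and next CFL1, the actin-severing protein cofilin (0.947). ANXA4 was most like RTL5 (0.965), ANXA7 like APEH (0.943), ANXA6 like the vesicle fusion protein VAMP3 (0.934), ANXA1 like the receptor kinase MET (0.895) and ANXA11 like NECAP2 (0.884). MYOF was most like the myosin light chain MYL6 (0.870), S100A10 like C1QTNF2 (0.861), DYSF like RGS9 (0.832) and ANXA5 like PLAAT3 (0.717), the weakest likeness of the 10. Among the 10 genes themselves r was highest for ANXA11 with MYOF (0.771) and lowest for ANXA11 with DYSF (-0.670), while ANXA2 with S100A10 had 0.524.

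Other annexins were tested where their levels allowed, which was 2 of 6. ANXA3 was at 298 in untreated cells and 961 on day 0 after KCl (1.69, SE 0.19, adjusted p = 1.6e-08), and it was lower in RS (208, -0.55, SE 0.19, adjusted p = 0.020). On day 0 after SDS and DXR it was not called. ANXA9 was lower on day 0 after SDS (54.9 to 23.7, -1.104, adjusted p = 0.00014), higher on day 0 after KCl (160, 1.61, adjusted p = 5.9e-07) and higher in RS (135, 1.36, adjusted p = 1.4e-05).

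Other S100 genes were tested for 8 of 10. On day 0 after SDS 5 were lower and none higher (57.6% of all genes were called), and after KCl 3 were higher and 1 lower (60.8%). S100A4, a motility-linked S100 protein of fibroblasts, was at 636 in untreated cells, 226 after SDS (-1.51, SE 0.19, adjusted p = 8.0e-08) and 2001 after KCl (1.65, SE 0.19, adjusted p = 1.5e-08), the same directions as S100A10. S100A3 had these directions too (-1.995 and 1.215), S100A2 was called after KCl only (1.14), and S100A16 was lower after SDS, KCl and DXR (-0.46, -0.80 and -0.40). After DXR 3 were higher and 1 lower (41.5% of all genes), and in RS 1 was higher and 3 lower (48.9%). Nothing particular to the list is read from these counts.

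Other genes with ferlin family names were tested for 3 of 4, and whether each of them makes a protein was not examined. FER1L6 and FER1L4 were called higher on day 0 after KCl, on day 0 after DXR and in RS, and FER1L6 also after SDS (8.41 normalised counts against 2.73 in untreated cells, 1.34, adjusted p = 0.016). With so low an untreated level, a few reads weigh heavily in each difference of FER1L6, and its single libraries are not given. The highest mean of FER1L6 was 47.9, on day 1 after SDS (3.71, adjusted p = 1.2e-06). FER1L5 was lower after SDS (-0.77, adjusted p = 0.019) and higher after KCl (1.196, adjusted p = 0.00049). On day 0 after SDS, 1 of these genes was higher and 1 lower (57.6% of all genes were called). After KCl 3 were higher (60.8%), after DXR 2 (41.5%) and in RS 2 (48.9%).

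Of 22 other repair genes (calpains, caveola and EHD proteins, AHNAK proteins and exocytosis proteins) 21 were tested. On day 0 after SDS 3 were higher and 14 lower, with a median of -0.41, after KCl 3 and 10 (-0.23), after DXR 2 and 8 (-0.21), and in RS 3 and 8 (-0.19). Of all tested genes 57.6%, 60.8%, 41.5% and 48.9% were called in these 4 comparisons, with medians of -0.00, -0.03, -0.01 and 0.01. The counts were not tested against these shares, and nothing particular to the list is read from them. SYT7, a calcium sensor of lysosome exocytosis, was at 12.7 in untreated cells and 70.3 on day 0 after SDS (2.70, SE 0.61, adjusted p = 0.00039), and was not called on day 0 after KCl or DXR. CAVIN2, a coat protein of caveolae, was at 1275 and 123 (-3.35, SE 0.20, adjusted p = 5.9e-14). AHNAK2 was lower on day 0 after SDS (-0.91) and KCl (-1.82, SE 0.15, adjusted p = 4.2e-11). VAMP7, a vesicle fusion protein, varied between libraries with an SE of 1.40 and was called in none of these 4 comparisons.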

How the data were processed

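mRNA of WI-38 cells was sequenced from 52 libraries, 2 in each of 26 groups, which were taken from the sample labels. The submitters' processing notes name Trim Galore, HISAT2, HTSeq, featureCounts and DESeq2, with no versions, and the builds hg38 and GRCh38. The 52 deposited files hold 25 distinct tables, each of 1 group against untreated cells. In each, the authors deposited a mean of normalised counts over the 4 libraries compared, which is a signal of 0 or more. The other columns hold the authors' own log2 fold changes, their standard errors, test statistics, p-values and adjusted p-values, and were not used. Other columns of per-sample values numbered 0.

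Whole reads per library were recovered from the digits of the means, since each mean is a sum of whole reads over size factors. Of the tables, 10 carry 15 digits, and in these the pair was found for all but 1 gene. The other 15 carry 10 digits or fewer, and were solved given the pair common to all tables, with 92.1% of genes found on day 1 of DXR and 98.8% to 99.8% in the others. The common pair was taken as the untreated one because every comparison holds it. Where several pairs fitted, the only one within 2-fold was taken, and otherwise the group mean alone was used, without a residual in the fit.

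The design provided for a test of single libraries only if a file gave them, and it was used on these recovered values after the files had been seen. Normalised counts were tested as log2(value + 1) with limma 3.58.1 (R 4.3.3) over 14883 genes with a mean of at least 10, all 26 groups in 1 fit and no covariates, with Benjamini-Hochberg adjustment and a threshold of 0.05. The log2 scale with a pseudocount understates changes of low genes. Pooled means were put on 1 scale by the common pair and compared with no test over 14740 genes, with a ratio of at least 25% over 1 as the limit. The genes named are the 10 genes, the gene most like each, and up to 4 genes of each list past the ratio in a comparison. These were other annexins, other S100 genes, other ferlins, other repair genes and cell markers. CFL1 and the markers PECAM1, CD3E, PTPRC, TRIM72, KRT5, CDH5, CDH1, MYH2, MYOD1, COL1A1 and VIM are named outside this rule. The 10 genes and the lists were chosen with earlier results of these data known.

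On simulated tables the recovery gave 0 wrong pairs among 282491 with 15 digits and 2 among 80368 with 10 digits, where it found 99.4%. In simulated counts for day 0 of SDS with 200 of 14883 genes changed, limma found 7.46% of changes of 0.5, 64.2% of 1 and 97% of 2 on the log2 scale, unchanged genes made up 13.2% of the calls, and 4 genes were called with none changed. The simulation gave all genes the same dispersion and changed far fewer genes than the 57.6% called on day 0 after SDS. These shares therefore do not give the power or error rate of the real calls. Alternatives were other size factors, pseudocounts, filters and ratios, a variance trend, and leaving out each library. Gene positions are from the GENCODE annotation of GRCh38. The software was matplotlib 3.10.9, SymPy 1.14.0, SciPy 1.17.1, pandas 2.3.3, NumPy 2.4.6 and Python 3.11.15, with the seed 20240222.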

Additional observations from a re-analysis of the deposited data

Results flagged for a closer look

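Differences between inducers at matched days were tested directly, and they drew attention because the effects of the inducers on the same genes differed. On day 0 this held for 8 of the 10 genes between SDS and KCl (65.7% of all genes tested), 10 between SDS and DXR (58.8%) and 8 between KCl and DXR (63.0%). On day 16 it held for 2, 2 and 6 of the 10 in the same order of pairs (24.4%, 4.73% and 29.0% of all genes tested). ANXA1 was higher than in untreated cells after SDS and lower after KCl on day 0, a difference between the inducers of 0.96 on the log2 scale. S100A10 was lower after SDS and higher after KCl, a difference of -1.74. For both genes the SDS and KCl libraries did not overlap. These differences hold no untreated library. No group had the 4 samples that a check for outlying samples needs.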

How the results depend on the processing

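Against untreated cells, 33 differences of the 10 genes passed the threshold on day 0, day 16 or in RS. Under the alternatives of the fit, all added after the data were seen (other size factors, a pseudocount of 0.5, a mean of at least 100 or no filter, a variance trend), 189 of 194 values kept direction and side of the threshold and 5 lost the threshold, all 5 without a filter, where more genes are adjusted over. Of 132 values with 1 library left out, 12 could not move because only the group mean was known, and of the other 120, 98 kept the call, 22 lost it and none reversed. In all, 23 of the 33 lost the threshold under no alternative run. Of these, 3 were of DYSF, which a mean of at least 100 removes, 4 (ANXA5 and MYOF on day 0 and ANXA2 and MYOF on day 16 after DXR) could not move without a treated library, and 16 met every alternative. The count of called genes ran from 3 to 4 for DXR day 0, 2 to 5 for SDS day 16, 0 to 1 for KCl day 16 and 3 to 5 for RS when 1 library was left out. The lowest of these, 3 for DXR day 0 and 2 for SDS day 16, and the 1 for KCl day 16 were without the smaller untreated library, and the 3 for RS was without the larger one. With 1 library left out, the count also fell in some fits for KCl day 0 and DXR day 16, and it rose in 1 fit for SDS day 0. Days 1 to 8 and the pairs of inducers were not refitted. No paired analysis was possible because the recovered libraries carry no replicate number.

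For the pooled means, the number of genes of the 10 past the ratio, summed over 3 comparisons, was 9 from day 0 to day 16, 12 from day 0 to day 1, 14 between inducers on day 0, 3 between inducers on day 16 and 3 between RS and day 16. A ratio of 1.5 gave 3 from day 0 to day 16, 1 from day 0 to day 1 and 5 between inducers on day 0, and a ratio of 1.1 gave 20, 21, 24, 12 and 9. Tables as deposited, with no common scale, gave 16, 22 and 18 for day 0 to day 16, inducers on day 0 and RS. Without 1 library of each table the counts ran from 5 to 15, from 3 to 15 and from 7 to 18 for the same comparisons as with 1.5, the lowest without the larger treated library (the smaller from day 0 to day 1) and the highest without an untreated library. Over all genes, the counts of 14548, 12699, 17431, 5016 and 5361 became 8590, 7374, 10732, 1900 and 2078 with a mean of at least 100, and 33211, 30546, 37313, 21839 and 21512 with no filter, as the number of genes compared changed. Pairs of 2 libraries and untreated libraries of the lowest depth limit all comparisons.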
